A study of Homo sapiens with 2 samples.

Results

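SNU-449, a human hepatocellular carcinoma cell line, was sequenced as total RNA from 1 control culture and 1 culture treated for 24 h with ezetimibe, an inhibitor of intestinal cholesterol absorption that acts on the sterol transporter NPC1L1. The labels state no ezetimibe dose and no vehicle for the control, and the depth of the libraries is unknown. The data are 1 table of the authors that lists, for each of 327 KEGG pathways, the genes called changed, as up or down, and that gives no level, fold change or p-value for a gene. A gene called up is taken to be higher in the treated culture, because the comparison is named with ezetimibe first; no value allows a check. The genes described are the autophagy and mitophagy genes of that table: those listed under Autophagy - animal or Mitophagy - animal, leaving out genes also listed under Protein processing in endoplasmic reticulum, Lysosome or Cell cycle and 9 widely shared kinase and AP-1 genes. This gave 54 of 2238 listed genes. They were chosen by the authors' calls from these 2 libraries, so their being listed is no finding, and their directions are given as a description with no test. With 1 library per condition, no difference has a replicate check.

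Autophagy encloses cytoplasm in a double membrane that then fuses with the lysosome. A kinase complex around ULK1 starts it, a lipid kinase complex around PIK3C3 marks the membrane, ATG proteins attach LC3 and GABARAP proteins to it, and cargo receptors tie the load to these proteins. Mitophagy is the same process for mitochondria, called in by the kinase PINK1 and ubiquitin chains or by receptors in the outer mitochondrial membrane. In liver cells autophagy turns over lipid droplets, protein and mitochondria, and it is held down by the growth-sensing kinase complex mTORC1 and promoted by the energy sensor AMPK.

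The 54 genes divided almost evenly, 28 up and 26 down, a share up of 51.9%. Over all listed genes 728 were up and 1510 down, a share up of 32.5%. Of the 8877 background genes of the pathways, 25.2% were listed as changed, 8.20% as up and 17.0% as down. The members come from the changed genes alone, so nothing is read from these shares about them. In the authors' deposited table, Autophagy - animal had 56 changed genes of 133, which is 42.1% (rich factor 1.67, p = 0.000318), and Mitophagy - animal had 24 of 73, which is 32.9% (rich factor 1.3, p = 0.167). The rich factor divides a pathway's changed share by that of the whole background. Both pathways together held 72 changed genes, and the rule removed 18 of them, 10 listed as up and 8 as down. The 37 members under the autophagy pathway alone had 17 up, the 12 under the mitophagy pathway alone had 8 up, and the 5 under both had 3 up.

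**Figure D1:**
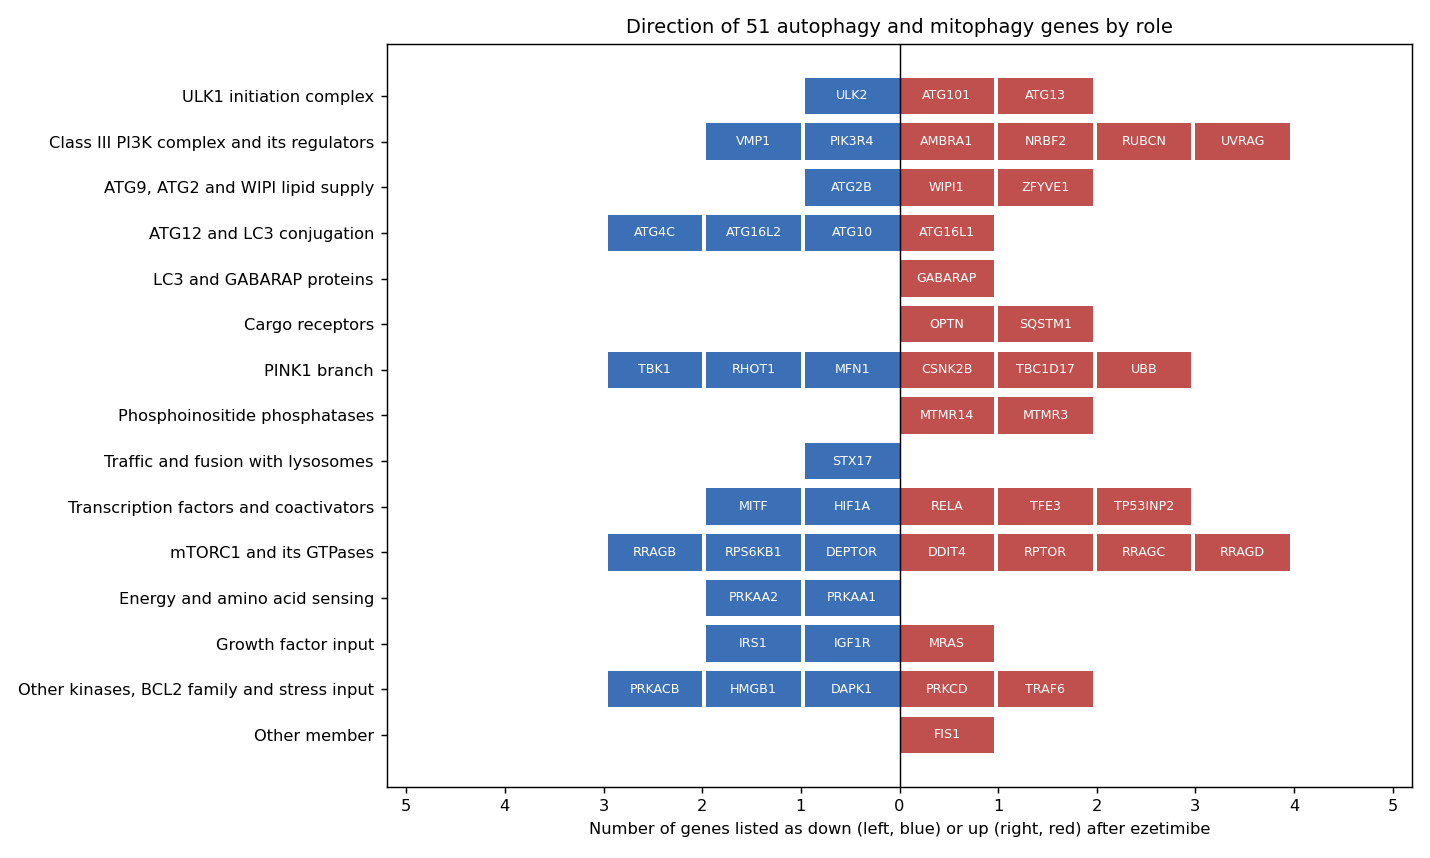
Each box is 1 of 51 members, placed by role, with genes listed as down to the left of the line and genes listed as up to the right; the horizontal axis counts genes. Both cargo receptors and GABARAP lie on the up side, both AMPK subunits, IGF1R and IRS1 on the down side, and most other roles hold genes of both directions.

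Genes of the autophagy machinery and of its regulatory input were listed in both directions. Of 29 members in lists of the machinery and of mitophagy, 17 were listed as up and 12 as down (58.6% up). Of 24 members in lists of upstream signalling and transcription, 10 were up and 14 down (41.7% up). Both shares lie above the 32.5% up of all listed genes. The remaining member, the mitochondrial fission receptor FIS1, was up. The difference between these groups was not tested, because the directions come from the calls that chose the genes. Over whole lists, members or not, with lysosomal proteins counted as input, 33 of 113 machinery genes were listed (29.2%, near the 25.2% of all background genes), 21 as up and 12 as down, and 33 of 84 input genes (39.3%), 17 as up and 16 as down. A gene that is not listed may be silent in these cells, short of the authors' criteria for change, or in no KEGG pathway.

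The initiation complex was split. ATG13, the adaptor of the complex, and ATG101, which stabilises ATG13, were listed as up, and the kinase ULK2 as down. The other 2 of the 5 genes of that list, ULK1 and RB1CC1, were not listed. The listed share of this small list was 60.0%, against 25.2% of all background genes, and the difference was not tested. ATG13 (chr11:46617527-46674818, plus strand) and ULK2 (chr17:19770829-19867936, minus strand; all gene positions are from GENCODE release 29 on GRCh38) are each under 3 pathways in the table.

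The list of the complex that makes phosphatidylinositol 3-phosphate and of its regulators had 4 members up and 2 down. Listed as up were AMBRA1, which links Beclin 1 to the ULK1 complex, NRBF2, a subunit of the ATG14-containing complex, UVRAG, the subunit that defines the second complex, and RUBCN (Rubicon), an inhibitor of that second complex. Activating and inhibiting partners therefore stood on the same side. PIK3R4 (VPS15), the pseudokinase that anchors the lipid kinase, and VMP1, a lipid scramblase of the endoplasmic reticulum, were listed as down. The catalytic subunit PIK3C3, Beclin 1 (BECN1) and ATG14 were not listed. Of the phosphatases that act on such lipids, MTMR3 and MTMR14 were up.

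The promoter of NRBF2 is shown because its window holds the 8-base form of the CLEAR element. TFEB and TFE3, master factors of lysosome and autophagy genes, bind this site. No other machinery member with a window held it. For some machinery members, among them UVRAG, RHOT1, STX17 and TBC1D17, no window was found. Windows of 300 bases (250 before and 50 from the RefSeq start on GRCh38.p14) were searched on both strands. The letters searched were CACGTG, the E-box, and TCACGTGA, the CLEAR-like site, which always holds the E-box. The 250 bases before the start of NRBF2 (chr10:63133078-63133327, plus strand) read as follows, with the CLEAR-like site in capitals, 247 bases before the start.
NRBF2: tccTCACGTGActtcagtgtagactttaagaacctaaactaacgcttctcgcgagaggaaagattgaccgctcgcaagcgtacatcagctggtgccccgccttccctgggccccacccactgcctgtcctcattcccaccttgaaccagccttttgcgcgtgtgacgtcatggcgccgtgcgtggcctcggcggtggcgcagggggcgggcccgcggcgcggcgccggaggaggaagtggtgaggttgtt

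Membrane supply was also split. WIPI1, which reads phosphatidylinositol 3-phosphate, and ZFYVE1 (DFCP1), which marks the sites where autophagosomes form, were listed as up. The lipid transfer protein ATG2B was listed as down. The other 6 of the 9 genes of that list, among them ATG9A, ATG2A and WIPI2, were not listed. The listed share was 33.3%, against 25.2% of all background genes.

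Of the 4 listed conjugation genes, ATG16L1 was up and ATG10, ATG4C and ATG16L2 were down. ATG16L1 (chr2:233210051-233295674) brings the ATG12-ATG5 conjugate to the membrane, ATG10 joins ATG12 to ATG5, and ATG4C is one of the proteases that trim LC3 and GABARAP proteins. ATG16L2 (chr11:72814308-72843674) is the paralog of ATG16L1, so this pair had opposite directions. ATG3, ATG5, ATG7 and ATG12, which carry out the same conjugation steps, were among the 7 of 11 genes not listed. The listed share was 36.4%, against 25.2% of all background genes, and the difference was not tested. The exons of ATG10 overlap those of RPS23 on the opposite strand, and RPS23 was listed as up. It is not stated whether reads were counted by strand, so reads of that pair cannot be told apart.

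The ubiquitin-like proteins and cargo receptors were listed on the up side only. GABARAP (chr17:7240014-7242770), which is under both pathways, was up, as were the receptors SQSTM1 (p62; chr5:179806398-179838078) and OPTN (optineurin; chr10:13099449-13138308). MAP1LC3B, the most used autophagosome marker, was also listed as up, but under another pathway of the table, and so was the receptor TOLLIP. Of the 7 genes of the LC3 and GABARAP list 2 were listed (28.6%), and of the 9 cargo receptors 3 (33.3%). Both shares are near the 25.2% of all background genes, so nothing is read from these few genes about the lists. NBR1, CALCOCO2 and TAX1BP1 were among the receptors not listed.

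Mitophagy genes had no common direction. CSNK2B, the regulatory subunit of casein kinase 2, TBC1D17, a GTPase-activating protein that restrains membrane growth around mitochondria, and the ubiquitin gene UBB were listed as up. MFN1 (mitofusin 1) and RHOT1 (Miro1), which fuse and move mitochondria from the outer membrane, and TBK1, the kinase that phosphorylates OPTN and SQSTM1, were listed as down. OPTN and its kinase thus had opposite directions. PINK1 itself was not listed, and neither was any of the 8 genes of the mitophagy receptor list, such as BNIP3, FUNDC1 and FKBP8. By comparison, 25.2% of all background genes were listed, and the difference was not tested. Ubiquitin genes consist of near-identical repeats, which leaves UBB uncertain.

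The promoter of TBK1 is shown because, among machinery members with a window, it alone besides that of NRBF2 holds an E-box. It lies 31 bases before the RefSeq start, in capitals in the 250 bases before that start (chr12:64451870-64452119, plus strand).
TBK1: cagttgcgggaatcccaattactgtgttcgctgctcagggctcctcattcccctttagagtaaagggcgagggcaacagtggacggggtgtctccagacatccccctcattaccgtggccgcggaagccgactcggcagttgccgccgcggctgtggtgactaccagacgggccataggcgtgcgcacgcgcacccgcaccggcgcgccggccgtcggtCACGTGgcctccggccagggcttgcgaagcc

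Few genes of fusion with the lysosome were listed. STX17, the syntaxin of the finished autophagosome, was listed as down, and YKT6, a second SNARE of the same step, as up under another pathway. These were 2 of 22 genes of the list (9.09%, against 25.2% of all background genes). The 2 shares are not alike, because genes of the list that are in no KEGG pathway could not be listed and were still counted. The difference was not tested. RAB7A, SNAP29, VAMP8 and the HOPS tether subunits VPS11, VPS16, VPS18, VPS33A, VPS39 and VPS41 were not listed. The lysosomal genes LAMP1, CTSD and CTSL of the autophagy pathway, left out of the members because they also belong to Lysosome, were all up.

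Among members that act in the nucleus, TFE3, RELA and TP53INP2 were listed as up and HIF1A and MITF as down. TFE3 (chrX:49028726-49043486) and MITF (chr3:69739435-69968337) belong to the same family as TFEB, which was not listed. RELA is an NF-kB subunit under 64 pathways, TP53INP2 a coactivator that also binds LC3 and GABARAP proteins, and HIF1A the oxygen-regulated factor that drives BNIP3. Of 17 genes written down as targets of TFEB, 13 were listed, 12 as up; of these SQSTM1, WIPI1, UVRAG, ATG16L1 and RRAGD are members. BCL2 was the 1 listed as down; it is named because of its direction. Of 16 autophagy genes written down as targets of the stress factors ATF4 and CHOP, 9 were listed, 8 as up, among them the members SQSTM1, GABARAP, ATG16L1 and DDIT4, with ATG10 down. The lists share MAP1LC3B, SQSTM1 and ATG16L1. Of all background genes 25.2% were listed, and of all listed genes 32.5% were up. Several of the other targets lie in the lysosome and endoplasmic reticulum pathways, whose lean was known when the lists were written, so their directions are no independent support.

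Of the mTORC1 members, 4 were up and 3 down. The mTORC1 scaffold RPTOR (raptor) and the GTPases RRAGC and RRAGD, which bring mTORC1 to the lysosome, were listed as up, and so was DDIT4 (REDD1), a stress-induced inhibitor of mTORC1. The inhibitor DEPTOR, the mTORC1 substrate kinase RPS6KB1 and the GTPase RRAGB were listed as down. Among inhibitors and among positive components there was thus 1 gene or more in each direction. MTOR itself, MLST8, RHEB, TSC1 and TSC2 were not listed.

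The Rag GTPases work as dimers of RRAGA or RRAGB with RRAGC or RRAGD, so the listed genes of the opposite sides of the dimer had opposite directions, and RRAGA was not listed. Their promoters are shown because RRAGB, listed as down, has more E-boxes in its window than any other member and RRAGC, listed as up, has 1; they were picked after these matches were seen. RRAGB has 3 E-boxes, starting 115 and 25 bases before the start and at base 8 after it, and the one at 25 bases lies in a CLEAR-like site. In RRAGC the E-box starts 112 bases before the start. The 250 bases before the start, with these sites in capitals, are chrX:55717499-55717748 (plus strand) for RRAGB and chr1:38859773-38860022 (minus strand) for RRAGC.
RRAGB: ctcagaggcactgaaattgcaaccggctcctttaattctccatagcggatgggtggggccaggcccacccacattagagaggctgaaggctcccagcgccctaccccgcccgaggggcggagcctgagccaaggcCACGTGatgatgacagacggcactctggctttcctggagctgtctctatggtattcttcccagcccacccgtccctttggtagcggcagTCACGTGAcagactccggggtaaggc
RRAGC: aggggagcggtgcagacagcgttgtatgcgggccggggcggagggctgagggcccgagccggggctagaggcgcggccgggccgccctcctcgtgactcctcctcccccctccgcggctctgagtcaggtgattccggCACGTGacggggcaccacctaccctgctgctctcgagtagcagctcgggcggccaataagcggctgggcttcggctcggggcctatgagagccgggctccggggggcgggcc
In GENCODE release 29 the genes NRBF2, TBK1, RRAGB and RRAGC each start inside the bases printed, so these windows depend on the RefSeq start.

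Energy and growth input held genes of both directions. Both catalytic subunits of AMPK, PRKAA1 (chr5:40759379-40798374) and PRKAA2 (chr1:56645322-56715335), were down. So were the growth factor receptor IGF1R and its adaptor IRS1, while MRAS, a RAS relative, was up. Of the other kinases and stress genes, PRKACB (a catalytic subunit of protein kinase A), DAPK1 (which phosphorylates Beclin 1) and HMGB1 were down, and PRKCD (protein kinase C delta) and the ubiquitin ligase TRAF6 were up. EIF2AK3 (PERK) and ERN1 (IRE1), stress sensors in the autophagy pathway, were up. They were left out of the members with the endoplasmic reticulum genes. The role list that holds them beside the AMPK subunits thus had 2 genes up and 2 down, with both AMPK subunits down.

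Members listed as up and members listed as down were both under a median of 3 pathways. The 8 members under more than 20 pathways included PRKACB (67), RELA (64), IGF1R (29), RPS6KB1 (28) and TRAF6 (24), and of the 8 RELA and TRAF6 were up. Of the other 46 members, 26 were up (56.5%), and of the 11 that are under a single pathway, 8 were up. Most listed genes of the whole table were down, with 32.5% up, so a lean to down in the pathways below is not particular to these members. The other pathway with the most members was mTOR signaling, with 15 of the 54 genes, 4 up and 11 down. PI3K-Akt signaling held 11 (3 up, 8 down), FoxO signaling 8 (1 up, GABARAP, and 7 down) and AMPK signaling 7 (1 up, RPTOR, and 6 down). NOD-like receptor signaling held 7, of which ATG16L1, GABARAP, PRKCD, RELA and TRAF6 were up and MFN1 and TBK1 down. These pathways share genes: IRS1, IGF1R, PRKAA1 and PRKAA2 were in each of the first 4 named.

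**Figure D2:**
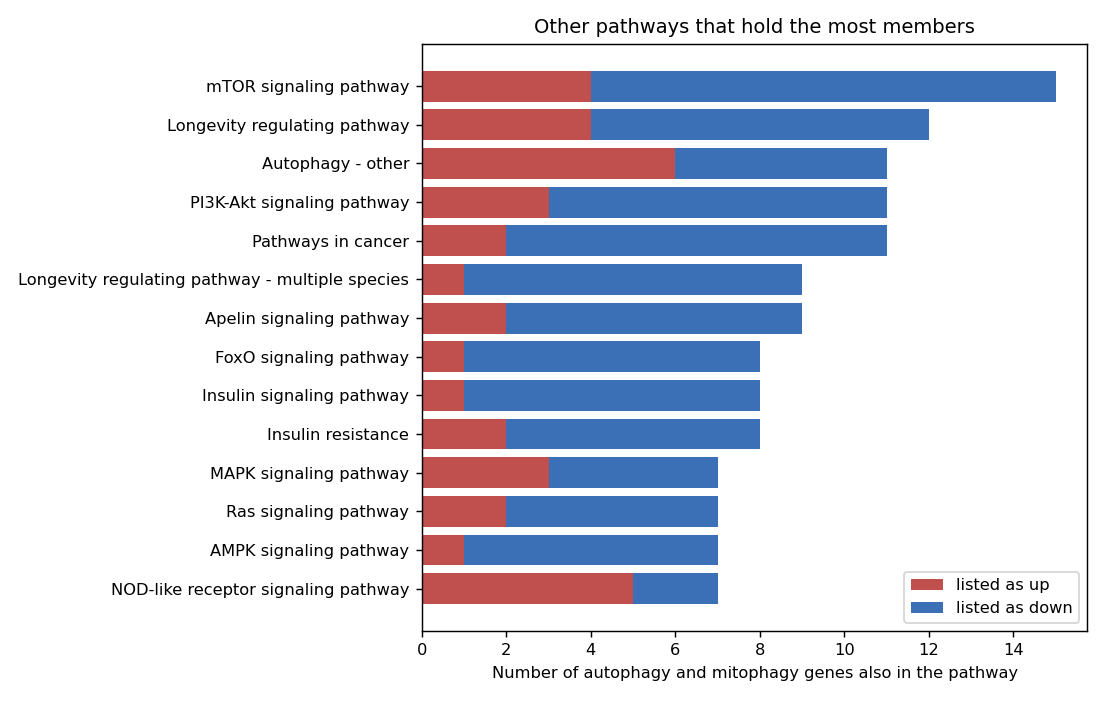
Bars count the autophagy and mitophagy genes that 14 of the other pathways also hold, split into genes listed as up (red) and as down (blue); further pathways that tie at 7 are not drawn. Genes listed as down make up 11 of 15 in mTOR signaling, and genes listed as up 5 of 7 in NOD-like receptor signaling. Of all listed genes, 32.5% were up.

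The direction of a member went with the base composition of its transcript. In the longest GENCODE transcript, the 28 members listed as up had a GC content of 41.9 to 60.3% (median 52.1%), and the 26 listed as down 34.8 to 60.2% (median 40.6%). The ranges overlap, but 14 members lay below 41.3%, the upper limit of the lowest of 4 equal-sized GC bins of all listed genes, and all 14 were down. Among them were ATG4C, HIF1A, HMGB1, MFN1, PRKAA1, PRKAA2, PRKACB, RHOT1, RPS6KB1, TBK1 and VMP1. Among all listed genes of that bin 4.64% were up. All listed genes show the same split, with medians of 55.2% for up and 43.6% for down. The part of base composition in the members' directions was not tested, and it cannot be told apart from the drug with 1 library per condition.

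**Figure D3:**
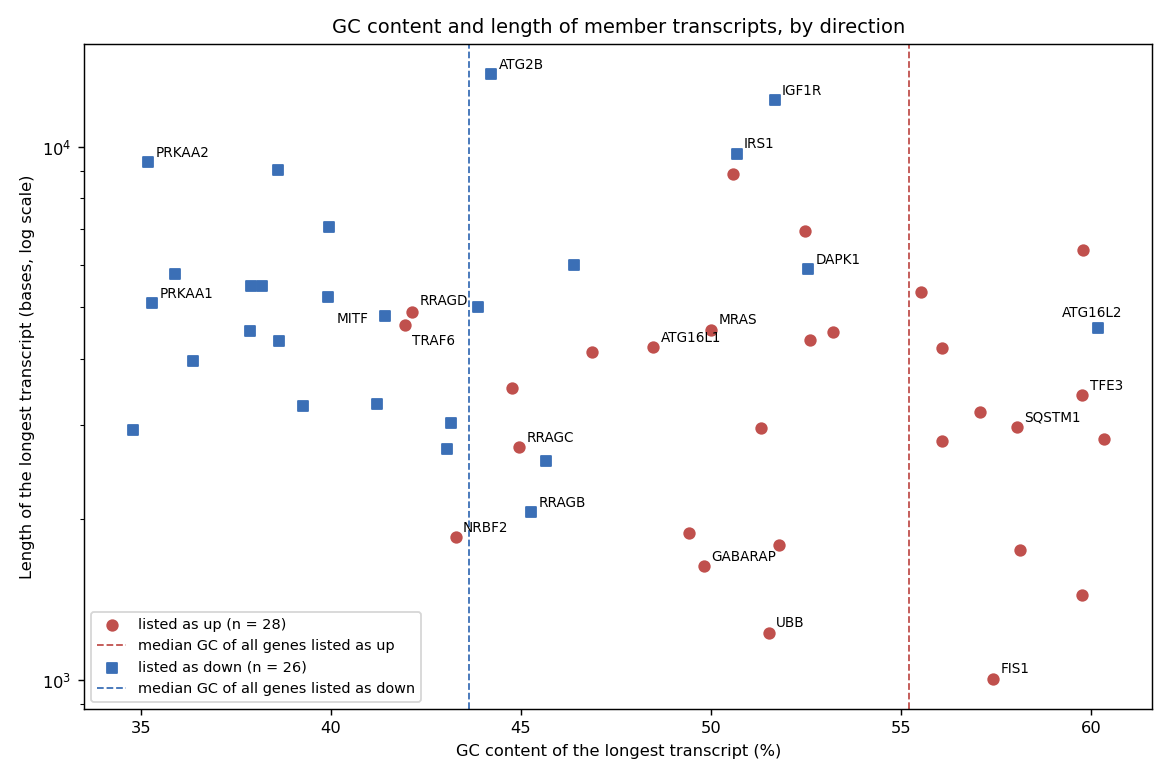
Each point is a member, placed by the GC content (horizontal, %) and the length (vertical, bases, log scale) of its longest transcript; red circles were listed as up, blue squares as down, and dashed lines mark the median GC content of all listed genes in each direction. Every member below 41.3% GC was listed as down, and ATG16L2, DAPK1, IGF1R and IRS1 are the blue squares above 50%.

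In the upper GC bins the members were listed as up more often than all listed genes. In the second bin (41.3 to 47.0% GC) 6 of 14 members were up (42.9%), against 20.2% of all listed genes. In the third (47.0 to 56.1%) 14 of 17 were up (82.4%), against 46.5%, and in the fourth (56.1 to 73.9%) 8 of 9 (88.9%), against 58.9%. These differences were not tested, and nothing is read from them. The bins hold few members, which were chosen from the changed genes alone and are themselves among all listed genes. In the fourth bin the members reached only 60.3% GC, so composition is not matched there. The members that went against the trend were ATG16L2, at 60.2% GC and down, and DAPK1 (52.6%), IGF1R (51.7%) and IRS1 (50.7%), also down. At the other end TRAF6 (41.9%), RRAGD (42.1%), NRBF2 (43.3%), OPTN (44.8%), RRAGC (44.9%) and UVRAG (46.9%) were up.

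**Figure D4:**
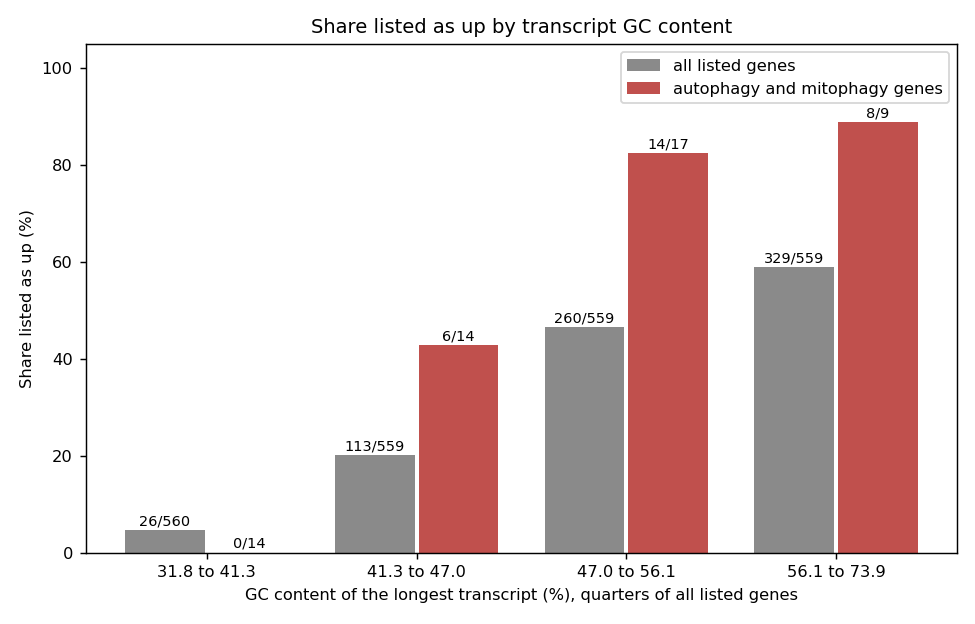
Bars give the share of genes listed as up (%) in 4 equal-sized bins of transcript GC content, for all listed genes (grey) and for the autophagy and mitophagy genes (red), with the numbers behind each bar. The red bar is 0 of 14 in the lowest bin and higher than the grey bar in the other 3. Red bars rest on few genes, and the differences were not tested.

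Close paralogs show where direction and composition part. MITF (41.4% GC, down) and TFE3 (59.8%, up) followed the trend. ATG16L1 (48.5%, up) and ATG16L2 (60.2%, down) ran the other way. The Rag genes RRAGB (45.3%, down), RRAGC (44.9%, up) and RRAGD (42.1%, up) lie close together in composition and differed in direction. PRKAA1 (35.3%) and PRKAA2 (35.2%) were alike in both.

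Transcripts and genes of members listed as up were also shorter. The longest transcript had a median of 3299 bases in members listed as up (1005 in FIS1 to 8906 in MTMR3) and 5052 in those listed as down (2061 in RRAGB to 13684 in ATG2B). Gene span had a median of 34124 bases and 83024 bases. All listed genes differed in the same way, with transcript medians of 2860 bases for up and 4401 for down and span medians of 17892 and 52749 bases. The ranges of the members overlap in both measures, and the part of length was not tested.

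The promoter did not share this split. Windows were found for 45 of the 54 members, 25 listed as up and 20 as down. Their median GC content was 66.7% for members listed as up (36.3 to 79.7%) and 74.0% for those listed as down (53.0 to 82.7%), the opposite order to the transcripts. Over all listed genes the promoter medians were 65.8% and 65.0%.

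**Figure D5:**
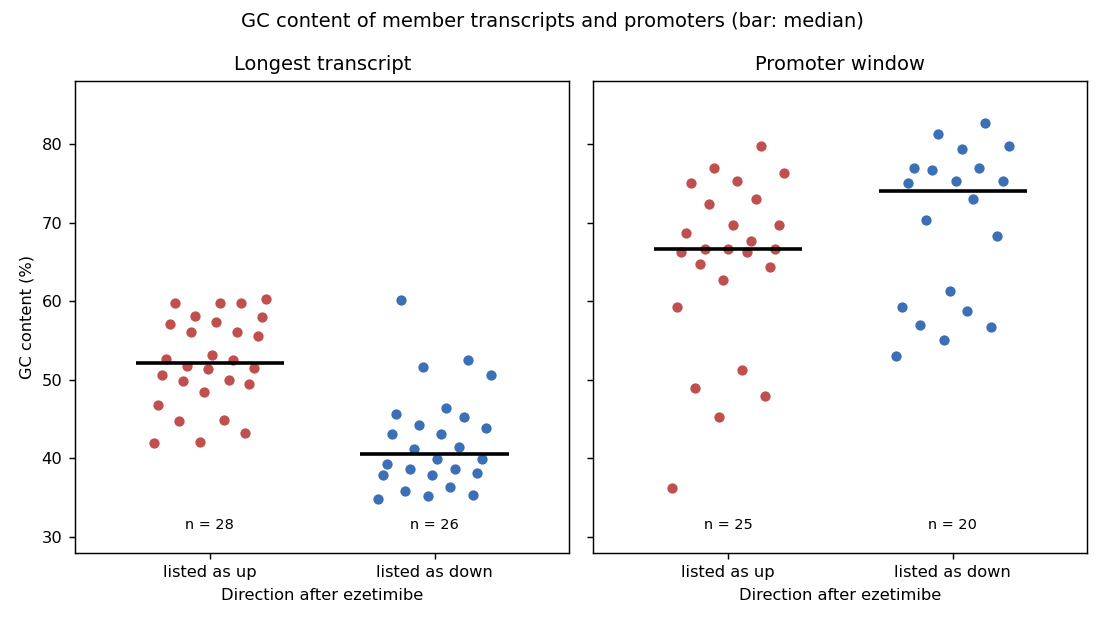
Points are members, by direction, with the GC content (%) of the longest transcript on the left and of the 300-base promoter window on the right; bars are medians. Members listed as up have the higher median in the transcript, 52.1% against 40.6%, and the lower one in the promoter, 66.7% against 74.0%.

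Few members of either direction held the motifs searched. The E-box was in 2 of 25 promoters of members listed as up (8.0%; NRBF2 and RRAGC) and in 3 of 20 of those listed as down (15.0%; IRS1, RRAGB and TBK1), against 7.26% of all 35116 RefSeq windows, 13.8% for all listed up genes and 9.20% for all listed down genes. The CLEAR-like site was in 1 of 25 and 1 of 20 (NRBF2 and RRAGB), and in 0.980% of all windows. The core of the site that ATF4 binds, TGATGNAA, was in 0 of 25 and 0 of 20 and in 3.62% of all windows. The FOXO site GTAAACA was in 1 of 25 (MTMR14) and 0 of 20, against 3.42%. The core of the antioxidant response element, TGACNNNGC, was in 3 of 25 (ATG101, RRAGC and UBB) and 4 of 20 (HIF1A, IRS1, PRKAA1 and RPS6KB1), against 13.3%. For all listed up and down genes the CLEAR-like share was 2.68% and 1.52%, and the ATF4 share 3.21% and 1.86%. The FOXO share was 1.61% and 3.38% there, and the antioxidant share 18.0% and 14.2%. All RefSeq windows had a median GC content of 58.7%, lower than the members, so composition is not matched. A match describes letters in the window and is not a bound site. A window without one shows no more than that the letters are not in these 300 bases.

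Some members cannot be counted cleanly. Exons of 29 of the 54 overlap exons of another annotated gene, 27 of them on the opposite strand. In GENCODE, 48 pseudogenes are named after HMGB1, 5 each after NRBF2 and UBB, 3 after RHOT1 and 1 each after HIF1A, SQSTM1 and TRAF6, among others. The cell type cannot be checked here, because a listing gives no level of a gene. Of 8 hepatocyte markers, AFP, CPS1, FGA, FGB and FGG were listed, all as down, and ALB, APOA1 and TTR were not. Markers of other cell types were listed too: of 4 fibroblast markers ACTA2, COL1A1 and COL1A2 as down, of 4 cholangiocyte markers SOX9 and SPP1 as down, of 3 immune markers CD68 as up, and of 3 endothelial markers none. Of all background genes 25.2% were listed as changed and 17.0% as down, and no loss of a cell type is read from these small lists. In a bulk culture, fewer cells of a type and less RNA per cell cannot be told apart.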

How the data were processed

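Total RNA of 1 control and 1 ezetimibe culture was sequenced. The submitters' processing notes name HISAT2 2.0.4 and StringTie 1.3.0. Build, annotation, settings and the changed-gene threshold are not named in the labels or the table. Per the file headers, the authors give each pathway its numbers of genes, a rich factor (an enrichment ratio), and p-value and q-value columns; the authors' p-values are printed as theirs. The members, role lists and target lists were chosen with earlier results of these data known. Genes were named by role list, and FIS1, in no list, as the remaining member.

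Directions were read from the authors' lists of up and down genes; no gene was in both. Gene IDs were matched to GENCODE release 29 (GRCh38), which gave a transcript for 2237 of 2238 listed genes and for all 54 members, and, by gene ID or symbol, to RefSeq promoter windows, which gave 1745 of 2238 and 45 of 54. GC content was taken from the longest transcript. Alternatives were other member sets, other sources of GC content, the window and older symbols. The GC and motif code was tested on simulated sequences. No test was run. Python 3.11.15, pandas 2.3.3, SciPy 1.17.1 and Matplotlib 3.10.9 were used. Results for some genes are not reported here, and they are left out of the plot of roles.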

Additional observations from a re-analysis of the deposited data

How the results depend on the processing

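The share of members listed as up was 51.9% (exact Clopper-Pearson 95% interval 37.8 to 65.7%, counting genes only). The interval treats genes called from the same 2 libraries as independent, so it is no test against other genes. The share was 47.6% for the 42 members under the autophagy pathway and 64.7% for the 17 under the mitophagy pathway, the 5 under both counted in each. It was 52.8% with nothing removed, 56.5% without widely annotated members and 58.6% for machinery lists alone. All lie inside that interval, but these sets share genes with the members, so this is no independent check. Alternatives added after seeing the data gave 52.8% without ATG10, whose exons overlap a listed gene, and 53.3% without members that have named pseudogenes. The median GC content of members listed as up exceeded that of members listed as down by 11.5 percentage points in the longest transcript. It reversed in the promoter window, at -7.30, while the transcripts of the same 45 members gave 11.8; the cause was not tested. Leaving out widely annotated members gave 9.89, and the mean over all transcripts of a gene, added after seeing the data, 10.9. With the bases before the start alone, the E-box share stayed at 8.0% in members listed as up and was 10.0% in those listed as down. Older symbols left the listed share of the machinery at 29.2%. No paired analysis was possible because each condition has 1 library. No replicate could be left out, and depth is unknown.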

Other observations

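Members lie within 100000 bases of each other at 2 places in the genome, and both pairs share a direction. Genes that are not members were ignored and may lie between them. AMBRA1 and ATG13, both listed as up, are 23401 bases apart on chromosome 11, and VMP1 and RPS6KB1, both listed as down, are 50790 bases apart on chromosome 17. No other members lie within 100000 bases of each other. The exons of VMP1 also overlap the gene of the microRNA MIR21 on the same strand. Whether neighbouring genes share a direction more often than others was not tested.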
